A study of Mus musculus with 2 samples.

Results

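The heat shock proteins and chaperones are described here in mouse skin cells that the design text describes as sorted. They came from mice with floxed Med1 alleles, with and without Cre. Med1 encodes a subunit of Mediator, the complex that joins transcription factors to RNA polymerase II. Members were taken by gene symbol: the Hspa, Hspb, Hspd, Hspe and Hsph genes, Hsp90, the Dnaja, Dnajb and Dnajc genes, the heat shock factors (Hsf), the Bag genes, and the Cct genes with Tcp1. This gave 82 genes with 110 probes, of 16593 named genes and 25697 probes on the array. Hsf1, Hsp90ab1 and Hspa1b were not analysed here.

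Each genotype had 1 Illumina bead array, hybridized with RNA of back skin cells. CON was MED1 fl/fl on C57BL6, littermates without Cre, and Med1cKO carried MED1 fl/fl with Cre driven by the keratin 14 promoter, which is active in basal keratinocytes. Both groups therefore carry the floxed alleles, and only the second carries Cre. The series' design text states that the skin cells of 3 mice for each genotype were pooled, and that integrin alpha6 positive cells without CD34 were sorted out. The protocol fields speak instead of RNA from whole skin. Strain background of the Cre mice and the ages are not given in the labels used here. With 1 array per genotype there was no replicate error and no test, and precision is limited by the number of arrays.

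Chaperones bind unfolded or newly made proteins and help them fold. Hsp70 proteins do this in cycles of ATP use, J-domain proteins (the Dnaj genes) bring clients to them and start the cycle, and Bag proteins release the nucleotide. Hsp90 acts on clients handed over from Hsp70, small heat shock proteins hold unfolded proteins without ATP, and the Cct ring folds actin and tubulin in the cytosol. When proteins misfold, heat shock factor 1 binds heat shock elements in promoters and switches on a subset of these genes. Separate chaperone sets serve the endoplasmic reticulum and mitochondria.

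The arrays were alike in brightness, with median probe intensities of 197.6 (CON) and 191.17 (Med1cKO), and 40.8% and 42.7% of probes detected at a detection p below 0.01. Krt14 had intensities of 37038 and 38429 and Itga6 of 1056 and 939 (CON, then Med1cKO, as in all pairs below). Cd34, against whose product the cells were sorted per the design text, was dim but detected on both arrays, at 321 and 279. Med1 had 794 and 452. Which exons were deleted is not stated in the labels, so these Med1 probes do not check the deletion. In bulk RNA, a change in the share of a cell type and a change in RNA per cell cannot be told apart.

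Of the 82 chaperone genes, 55 (67.1%) were detected on at least 1 array, compared with 47.9% of all genes. Among these 55, 51 were detected on both arrays, 2 (3.64%) in CON only and 2 (3.64%) in Med1cKO only, where all genes had 3.08% and 6.64%. The 27 undetected members held no level above background and are named by family below. The detected members were bright: 11 of the 55 (20%) lay in the brightest 10% of detected genes. Hspa8, the constitutive Hsp70 of the cytosol, ranked 36 of 7955 detected genes in CON and 26 in Med1cKO. Dnajb1, its main stress-responsive J-domain partner, ranked 89 and 52.

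Most chaperone genes differed little between the pools. All ratios are Med1cKO over CON after background correction and quantile normalization. At least 2-fold higher in Med1cKO were 3 of 55 detected members (Hspa1a, Dnajb4 and Dnajb9), where 3.95% of all detected genes were. At least 2-fold lower was 1 member, Dnajc6, against 1.81% of all genes. At 1.5-fold, a limit chosen after the values were seen, 8 members were higher (14.5%, background 9.25%) and 3 lower (5.45%, background 8.28%). Without background correction these were 4 higher (7.27%, background 5.54%) and 1 lower (1.82%, background 3.12%). Measured within 1.5-fold were 41 members, and for Dnajb3, Dnajc11 and Hspa4l, detected on 1 array, the bound was below it. The median log2 ratio was 0.10 over the 55 members and -0.04 over all detected genes. Above 0 were 31 members (56.4%), against 45.6% of all genes. The 2-fold counts are a few genes each and give no result about the group.

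Pairs of probes of the same gene give a scale for these differences, although not a replicate error. Across 1778 genes with 2 probes detected on both arrays, the log2 ratios of the pair differed by a median of 0.18, and by 0.56 at the 90th percentile. For the 10 chaperone genes with such a pair the median was 0.20, and 5 pairs had the same sign. Among the 1778 pairs of all genes, 1291 had the same sign. Dnajc19, with a log2 ratio of 0.00 by its brighter probe, was not counted as having the same sign. The members near 0 therefore have no settled direction.

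**Figure D1:**
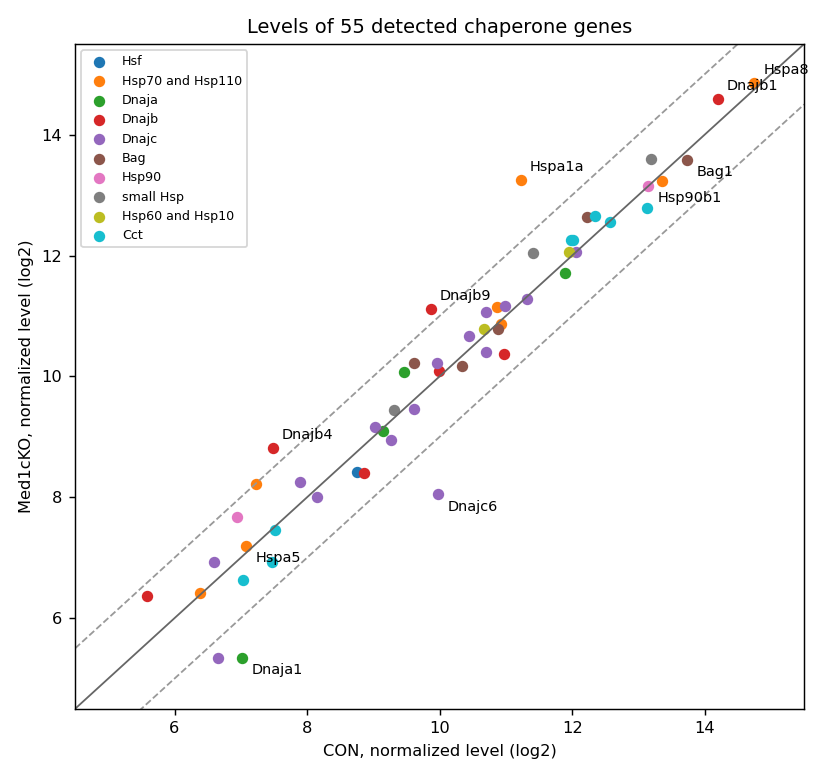
Normalized log2 level of each of the 55 detected chaperone genes in CON (x axis) and Med1cKO (y axis), 1 array each, coloured by family. The solid line marks equal levels and the dashed lines a 2-fold difference. Hspa1a, Dnajb4 and Dnajb9 lie above the upper line and Dnajc6 below the lower one. Dnaja1 and Dnajc11, below the lower line near the bottom left, were not detected in Med1cKO, so their measured points there are background.

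Most genes in a group of 14 listed targets of heat shock factor 1 had higher values in the Med1cKO pool. All 12 of the group with a probe were detected, and 11 had a log2 ratio above 0, with a median of 0.41. The other 43 detected members had 20 above 0 and a median of -0.01. The group was written down with earlier results for Hspa1a known, so it is a description and nothing is called particular to it. In it, Hspa1a and Dnajb4 were at least 2-fold higher, where 3.95% of all detected genes were. With Hsp90aa1 and Hspb8 the number at least 1.5-fold higher was 4 of 12, against 9.25% of all detected genes. The exception was Dnaja1, which was lower. Of the genes detected on both arrays, 11 of 11 were above 0. With the mean of a gene's detected probes in place of the brightest, 10 of 12 were.

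Hspa1a, the classical stress-inducible cytosolic Hsp70, had intensities of 2604 and 9938. This was 4.06-fold higher in Med1cKO (log2 ratio 2.02), and 3.88-fold without background correction. The log2 ratio was 8.66 times the spread of ratios among equally bright genes (robust SD 0.23, a spread between genes and not between replicates). It was rank 40 from the highest among 7182 genes detected on both arrays. Only 1 probe bears this name, and Hspa1b is nearly identical in sequence, so the signal may belong to either gene.

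Dnajb4, a cytosolic J-domain protein, had intensities of 335 and 586 by the only one of its 3 probes that was detected. It was 2.502-fold higher (log2 ratio 1.32) and 1.82-fold without background correction, so the 2-fold call depends on that step. The other 2 probes were at background on both arrays. Hspb8, a small heat shock protein that works with Bag3 in clearing damaged proteins, had 2945 and 4299, or 1.54-fold. Hsp90aa1, the inducible cytosolic Hsp90, had 277 and 348, or 1.66-fold by its brighter probe (1.295-fold without background correction). Its second probe, at 228 and 184, was not detected on either array.

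Several bright members of the inducible group shared a smaller difference. Dnajb1 had 19105 and 25006, or 1.32-fold. Bag3, a co-chaperone of the Hspb8 complex, had 4991 and 6584, or 1.33-fold. Hspb1, the abundant small heat shock protein of keratinocytes, had 9378 and 12756, also 1.33-fold. Their log2 ratios came to between 1.70 and 1.78 robust SDs of equally bright genes. Hsph1, an Hsp110 nucleotide exchange factor, had 2066 and 2356, or 1.22-fold. Hspa8, Hspd1 and Hspe1 had log2 ratios of 0.10 each, within the disagreement of probe pairs.

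**Figure D2:**
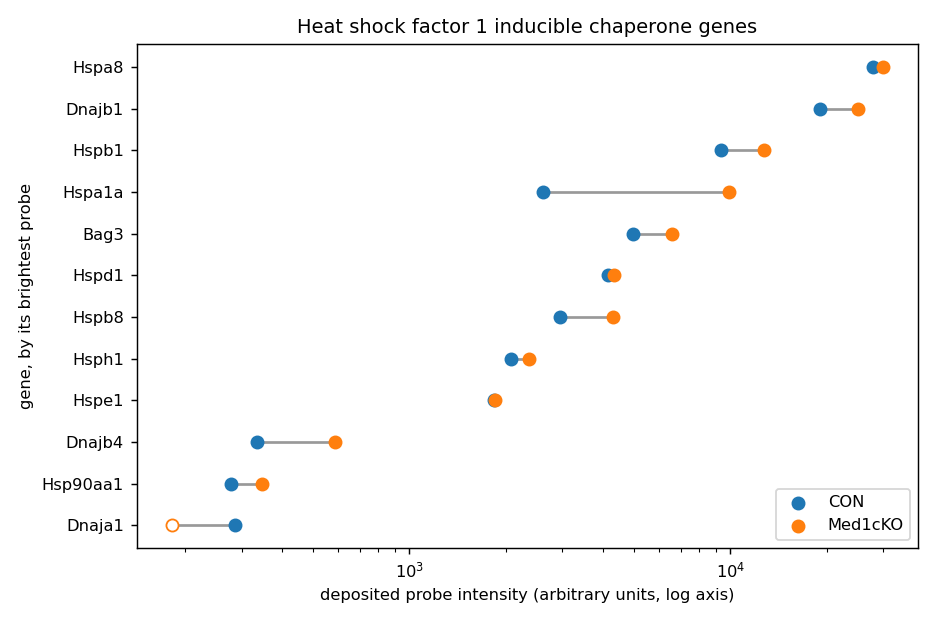
Deposited intensity (log axis) of the brightest probe of the 12 heat shock factor 1 inducible chaperone genes in CON (blue) and Med1cKO (orange), 1 array each. Open circles were not detected. The Med1cKO point lies to the right for 11 genes, with the widest gap at Hspa1a (2604 and 9938), and to the left for Dnaja1 (285 and 182).

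Promoters of this group were read for heat shock elements because most of its genes had ratios above 0. RefSeq promoter sequences (GRCm38.p6) run from 250 bases before to 50 bases after the annotated start and were found for 67 of the 82 members, 10 of them in the inducible group. The full element was searched on both strands as 3 units, GAA, TTC and GAA, with 2 bases of any kind between neighbouring units. It was present in 3 of the 10 inducible genes (Hsph1, Hspd1 and Hspe1), in 1 of the 57 other members (Dnajb6), and in 0.662% of 27025 genes in the promoter table. A shorter form of 2 units, GAANNTTC or TTCNNGAA, which the full element contains, was chosen after the first result was seen. It was present in 9 of 10 inducible genes (Dnajb1 had none), in 12 of 57 other members, and in 17% of all genes. The group was listed as known targets of heat shock factor 1, so a higher share of either form in it is no independent result. A match is a description of letters and not a binding site.

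The sequences below are those of the genes with the largest ratios in the group (Hspa1a and Dnajb4) and of 2 genes with the full element (Hsph1 and Hspe1), with matches to either form in capitals, 5′ to 3′ on the gene's strand. Hspa1a lies at chr17:34972107-34972406 (minus strand), and its match begins at position -104 from the start (position 0). The Dnajb4 promoter with a match is at chr3:152193796-152194095 (minus strand), with the match at -14; its other promoter had none. The first of 2 overlapping Hsph1 promoters is at chr5:149636266-149636565 (minus strand), with matches from -54 and 15, and Hspe1 at chr1:55087898-55088197 (plus strand), with overlapping matches from -89.
Hspa1a: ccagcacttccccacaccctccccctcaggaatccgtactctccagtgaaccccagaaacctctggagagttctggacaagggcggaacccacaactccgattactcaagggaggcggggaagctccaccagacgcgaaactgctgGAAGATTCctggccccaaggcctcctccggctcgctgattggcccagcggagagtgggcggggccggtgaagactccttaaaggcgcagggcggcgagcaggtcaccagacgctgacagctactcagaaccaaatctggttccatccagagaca
Dnajb4: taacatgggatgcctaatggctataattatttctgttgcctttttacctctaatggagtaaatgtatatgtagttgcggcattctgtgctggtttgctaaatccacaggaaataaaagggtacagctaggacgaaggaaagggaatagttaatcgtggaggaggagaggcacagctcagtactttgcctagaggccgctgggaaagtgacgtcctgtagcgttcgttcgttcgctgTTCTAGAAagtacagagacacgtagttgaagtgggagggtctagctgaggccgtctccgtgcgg
Hsph1: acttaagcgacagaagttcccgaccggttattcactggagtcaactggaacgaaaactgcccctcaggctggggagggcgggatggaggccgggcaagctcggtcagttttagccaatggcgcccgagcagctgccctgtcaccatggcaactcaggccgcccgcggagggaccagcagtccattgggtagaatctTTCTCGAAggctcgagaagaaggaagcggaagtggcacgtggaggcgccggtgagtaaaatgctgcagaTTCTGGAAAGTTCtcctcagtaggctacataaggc
Hspe1: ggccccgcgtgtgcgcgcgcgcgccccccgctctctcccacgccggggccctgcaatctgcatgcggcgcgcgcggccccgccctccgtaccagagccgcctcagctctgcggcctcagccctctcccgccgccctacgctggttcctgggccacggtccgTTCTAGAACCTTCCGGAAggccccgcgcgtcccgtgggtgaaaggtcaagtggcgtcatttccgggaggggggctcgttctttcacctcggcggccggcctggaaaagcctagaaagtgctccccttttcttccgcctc
Hsph1 and Hspe1, which hold the full element, had log2 ratios of 0.28 and 0.10, and Hspa1a, which holds the 2-unit form only, had 2.02. The genes shown were picked for their ratio or their element, so no relation between these is read from them. Hspe1 and Hspd1, which encode the mitochondrial Hsp10 and Hsp60, lie head to head, and their promoter windows share these matches.

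Among the heat shock factors only Hsf2, which can bind heat shock elements together with heat shock factor 1, was detected. It had intensities of 595 and 481, or 1.26-fold lower (log2 ratio -0.33), 0.73 times the robust SD of similar genes. Hsf3, Hsf4 and Hsf5 were not detected on either array.

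Outside the inducible group, the Hsp70 and Hsp110 family held 1 more gene with a difference above 1.5-fold. Hspa4, an Hsp110-type exchange factor, had 305 and 437, or 1.98-fold higher by the detected one of its 2 probes, and 1.49-fold without background correction. Hspa2, best known from male germ cells, was bright in these pools at 2135 and 1958, and both its probes had log2 ratios near 0 (-0.06 and -0.09). Hspa8 was the brightest member of all at 27892 and 29915. Its second probe, at 7340 and 6332, pointed the other way (log2 ratio -0.23). Hspa4l was detected in Med1cKO only, yet its intensities of 238 and 232 were alike. Hspa12a, Hspa12b, Hspa13, Hspa14 and Hspa1l were not detected.

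The lowest ratio of all members was that of a J-domain gene, Dnajc6. Of 39 with a probe, 26 were detected (4 Dnaja, 7 Dnajb and 15 Dnajc), 13 with a log2 ratio above 0 and 12 below, and the median was 0.05. Dnajc6 encodes auxilin, which brings Hsc70 to clathrin-coated vesicles to strip their coat and is best known from neurons. It had 1195 and 407 by its brighter probe and 1071 and 346 by its second. These were 3.82-fold and 4.43-fold lower in Med1cKO (log2 ratios -1.93 and -2.15), or 2.80-fold lower for the brighter probe without background correction. Both probes were detected on both arrays, and the brighter one was rank 12 from the lowest among 7182 such genes, at 4.83 times the robust SD of similar genes.

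Dnajb9, also called ERdj4, is a J-domain protein of the endoplasmic reticulum that is induced by unfolded proteins there. It had 1111 and 2297, 2.37-fold higher in Med1cKO (log2 ratio 1.24), or 2.18-fold with the background left in. Its other probe was at background on both arrays. Dnaja4, a cytosolic J-domain protein, had 876 and 1198, or 1.53-fold higher (1.44-fold without background correction). Dnajb2, whose product carries ubiquitin-interacting motifs and is known from neurons, had 2213 and 1441, or 1.52-fold lower (1.47-fold without background correction). Dnajb12, of the endoplasmic reticulum membrane, had 628 and 479, or 1.37-fold lower.

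Dnaja1, a main cytosolic partner of Hsp70, was detected in CON only, with 285 and 182. On the background-corrected scale it was at least 1.77-fold lower in Med1cKO. This is no bound on other scales, and without the correction the value was 1.25-fold. Its second probe was at background on both arrays. Dnaja3, which acts in mitochondria and was the brightest Dnaja gene, had 3981 and 3422, a log2 ratio of -0.18. Dnaja2, another cytosolic partner of Hsp70, had -0.05. The rest of the Dnajc class differed little. Apart from Dnajc6, no member detected on both arrays reached 1.5-fold. Dnajc15 and Dnajc8 were at the upper end, with log2 ratios of 0.36 each, and Dnajc19, of the mitochondrial import motor, was the brightest at 4490 and 4363 with a ratio of 0.00. Dnajc11 was detected in CON only (255 and 182), at least 1.37-fold lower on the background-corrected scale, so its distance from 1.5-fold is unknown, and 2 further probes of it were at background. Dnajb3 was detected in Med1cKO only (198 and 228), with no fold to give.

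The undetected J-domain genes were Dnajb13, Dnajb5, Dnajb7, Dnajb8, Dnajc1, Dnajc12, Dnajc14, Dnajc18, Dnajc27, Dnajc28, Dnajc5b, Dnajc5g and Dnajc9. Neither array gave a level for these 13 genes.

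**Figure D3:**
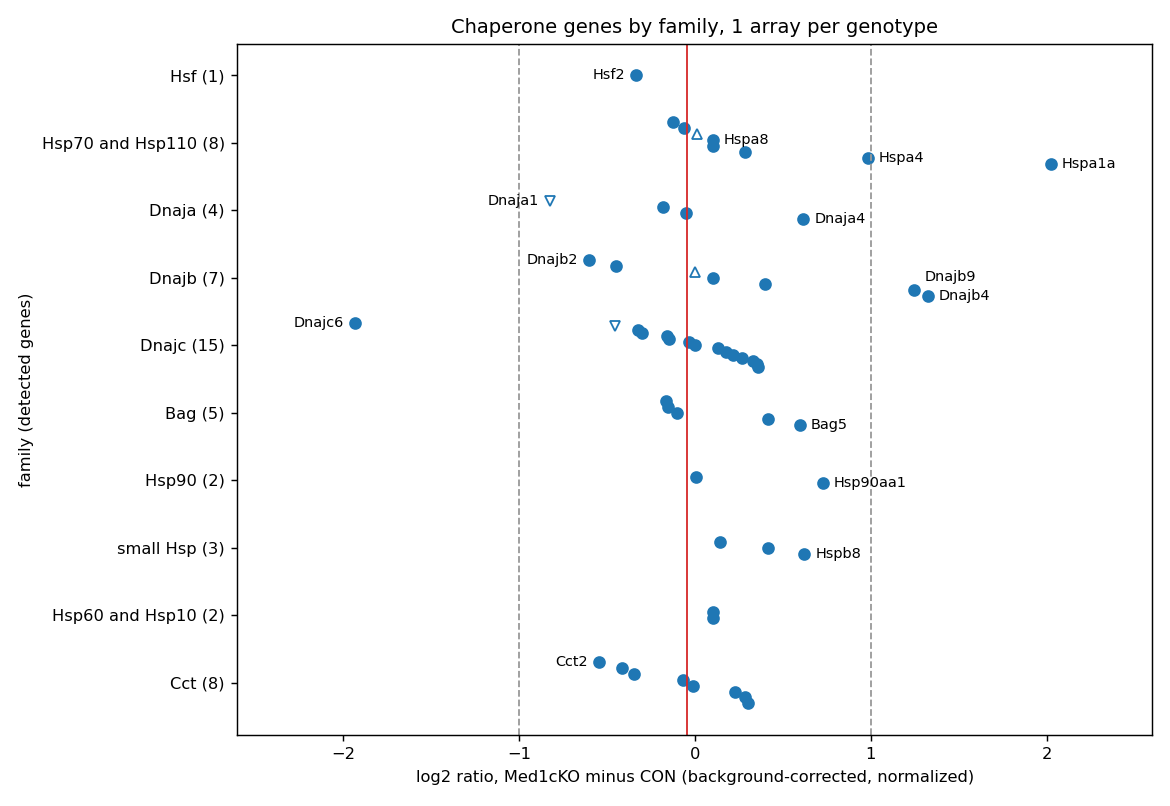
Log2 ratio (Med1cKO minus CON) of each detected chaperone gene by family, with the number of detected genes in brackets. Filled circles are measured, triangles are bounds for genes detected on 1 array, the red line is the median of all detected genes (-0.04) and the dashed lines mark 2-fold. Most points lie between the dashed lines, with Hspa1a, Dnajb4 and Dnajb9 to the right and Dnajc6 to the left.

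Bag genes encode exchange factors that pair Hsp70 with other pathways. Of 6, 5 were detected and Bag2 was not. Bag5, which holds several Bag domains, had 958 and 1310, or 1.51-fold higher (1.43-fold without background correction), beside the Bag3 value above. Bag1, the brightest at 13718 and 12642, had a log2 ratio of -0.15, Bag4 -0.10, and Bag6, which guards tail-anchored membrane proteins, -0.16. The family median was -0.10, close to that of all genes.

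Hsp90b1, the Hsp90 of the endoplasmic reticulum also called Grp94, had 9165 and 9374, a log2 ratio of 0.01. The small heat shock genes were Hspb1 and Hspb8, given above, and Hspb6, which had 799 and 829 (log2 ratio 0.14). All 3 were above 0, with a median of 0.41. Hspb2, Hspb3 and Hspb7, known from muscle, were not detected. Hspd1, the mitochondrial Hsp60 chaperonin, had 4158 and 4336 and its lid Hspe1 1838 and 1854. The second Hspd1 probe had a log2 ratio of -0.05, so neither direction is settled.

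Subunits of the cytosolic chaperonin, which assemble in equal numbers into a ring, had ratios on both sides of 0. Of the 8 detected subunit genes, 3 had log2 ratios above 0 and 5 below, none reached 1.5-fold, and the median was -0.04. Cct2, dim at 333 and 268, had the largest difference at 1.46-fold lower (1.21-fold without background correction). Cct7, also dim at 286 and 244, was 1.33-fold lower. Cct4, the brightest at 9041 and 7212, was 1.27-fold lower, and Cct6a, at 5441 and 6628, 1.23-fold higher. Cct3 and Cct8 had log2 ratios of 0.28 and 0.23, Cct5 -0.07 and Tcp1, the alpha subunit, -0.01. Cct6b, a testis-type subunit, and Cct8l1 were not detected.

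Chaperones of the endoplasmic reticulum were compared as a group, since they answer to the unfolded protein response and not to heat shock factor 1. The group was a fixed list of 9 genes and does not hold Dnajb12, given above (log2 ratio -0.45). Of 7 with a probe, 5 were detected, and the median log2 ratio was 0.01. Only Dnajb9 exceeded 1.5-fold. Hspa5 (BiP), the main Hsp70 of this compartment, had 291 and 291, a log2 ratio of 0.11, but its probe was dim. Dnajc3, an inhibitor of the stress kinase PERK and a co-chaperone of BiP, had a log2 ratio of -0.15 and Dnajc10, a disulfide reductase, -0.30.

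The endoplasmic reticulum stress element, CCAAT and CCACG with 9 bases of any kind between them, was searched on both strands and chosen after the values were seen. It was present in the promoters of Hspa5, Hsp90b1 and Dnajc3, 3 of 6 in this group, and in 0.137% of all genes. The element is known from genes of the unfolded protein response, to which this group answers, so the higher share is no independent result. The Dnajb9 window held no match. The promoters of Hspa5 (chr2:34771840-34772139, plus strand, match from -65) and Dnajb9 (chr12:44210019-44210318, minus strand, no match) are shown to set a gene with a ratio near 0 beside the one beyond 2-fold, with the match in capitals.
Hspa5: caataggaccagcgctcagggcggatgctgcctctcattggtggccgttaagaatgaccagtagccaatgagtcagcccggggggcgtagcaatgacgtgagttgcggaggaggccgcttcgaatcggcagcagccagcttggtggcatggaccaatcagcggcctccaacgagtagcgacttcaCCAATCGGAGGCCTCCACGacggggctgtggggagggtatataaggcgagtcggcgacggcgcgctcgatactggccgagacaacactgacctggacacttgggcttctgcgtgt
Dnajb9: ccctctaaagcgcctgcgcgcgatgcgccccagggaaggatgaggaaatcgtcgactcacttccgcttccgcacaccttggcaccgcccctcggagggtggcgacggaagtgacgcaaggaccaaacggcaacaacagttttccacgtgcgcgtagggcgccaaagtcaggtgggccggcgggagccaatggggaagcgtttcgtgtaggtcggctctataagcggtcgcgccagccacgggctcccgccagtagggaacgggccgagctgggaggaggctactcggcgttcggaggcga

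Mitochondrial chaperones differed little. Of 9 genes, 8 were detected, 4 were above 0, and none of the 7 detected on both arrays reached 1.5-fold (the other was Dnajc11, given above). The median log2 ratio was 0.05. Hspa9, the mitochondrial Hsp70 mortalin, was bright at 10671 and 9867 (log2 ratio -0.12), with 0.07 by its second probe.

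Co-chaperones outside the families were read from a list of 49 genes, 44 of them with a probe and 39 detected. Their median log2 ratio was 0.01, and 20 were above 0, where 45.6% of all detected genes were. At least 2-fold higher was 1 and none was 2-fold lower, against 3.95% and 1.81% of all detected genes. The higher gene was Fkbp5, an Hsp90-bound immunophilin that is a known glucocorticoid receptor target, with 243 and 384, or 2.72-fold (1.64-fold without background correction). Cacybp had 320 and 395, or 1.53-fold higher (1.28-fold without background correction). Sil1, the exchange factor of Hspa5, had 431 and 323, or 1.52-fold lower (1.28-fold without background correction). Fkbp4, an Hsp90 immunophilin related to Fkbp5, had 5408 and 3641, or 1.46-fold lower. Next in size were Hspbap1, with a log2 ratio of 0.42, and the prefoldin subunit Pfdn4, with 0.41. Chosen after their values were seen, Stip1, which links Hsp70 to Hsp90, had a log2 ratio of 0.01, and Ahsa1, the activator of Hsp90, 0.22.

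**Figure D4:**
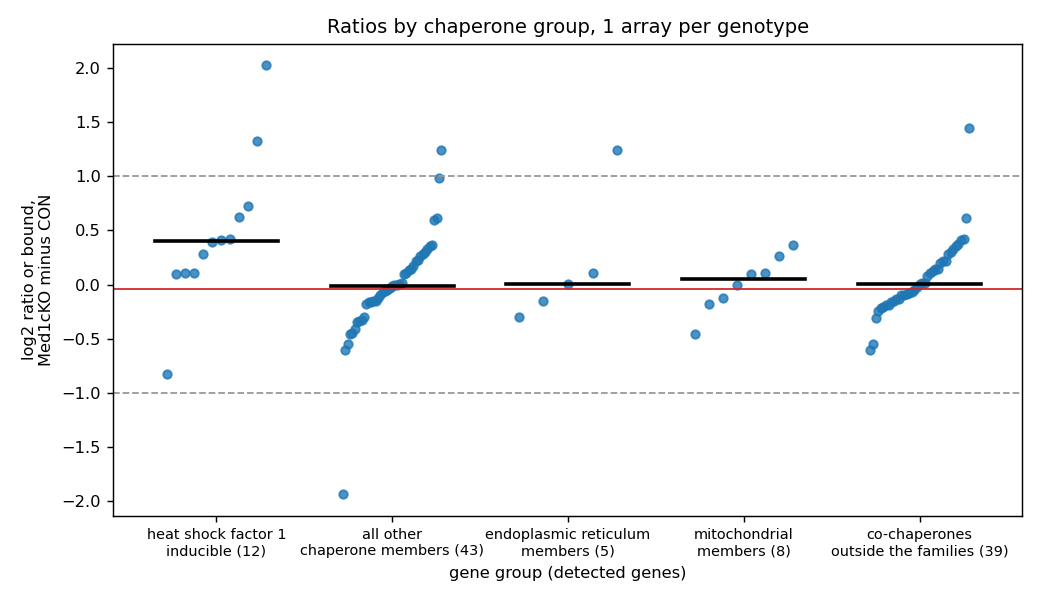
Log2 ratio or bound (Med1cKO minus CON) of each detected gene in 5 groups, with the number of genes in brackets. Black bars are medians, the red line the median of all detected genes (-0.04) and dashed lines 2-fold. The black bar of the heat shock factor 1 inducible group lies at 0.41 and those of the other groups between -0.01 and 0.05.

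Some early response genes, which tissue dissociation is known to induce along with heat shock genes, also had higher values in the Med1cKO pool. Of 25, 23 were detected, and 13 of these had a ratio or bound within 1.5-fold. For Egr3 and Btg2, detected in Med1cKO only, it was a lower bound, so their distance from 1.5-fold is unknown. At least 2-fold higher were 5, where 3.95% of all detected genes were, and 2-fold lower was 1, against 1.81%. At 1.5-fold, 9 were higher (background 9.25%) and 1 lower (background 8.28%). With undetected values taken as measured, 20 of the 23 were above 0, against 45.6% of all detected genes. The median log2 ratio was 0.22 with bounds for genes detected on 1 array, and 0.24 over those detected on both arrays. With undetected values taken as measured it was 0.57. Chosen after their values were seen, the bright genes Fos (25373 and 25645) and Egr1 (29193 and 30733) differed little. Gadd45b had 834 and 4332, Ier3 3423 and 16365, and Fosl1 460 and 1281. Ier2 was detected in Med1cKO only (234 and 549), and Egr2 had 2983 and 6719. Klf2 was the lower gene, with 3707 and 1277. Their part in the chaperone ratios was not tested.

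Markers of some other cell types also had higher values in the Med1cKO pool. Of 6 fibroblast markers, 4 were detected in Med1cKO and 0 in CON, where 6.64% of all detected genes were seen in Med1cKO only. Their summed intensities were 970 and 3654 over all 6, background included. Dcn, at 178 and 2297, was at least 25.97-fold higher on the background-corrected scale (10.03-fold without the correction). Its bound, a log2 ratio of 4.70, was the highest value of all detected genes. The T cell list had 3 of 4 detected, all at least 2-fold higher (sums 1086 and 1891). The Langerhans and dendritic cell list had 4 of 4 detected, with 3 at least 2-fold higher (2099 and 3590). Of all detected genes, 3.95% were at least 2-fold higher. The alpha globin Hba-a1 had 492 and 2231. The 4 endothelial and 5 muscle markers were not detected on either array, and of 5 melanocyte markers 1 was detected, in Med1cKO. In the bulge stem cell list, Sox9 had 333 and 752, Lgr5 was detected in Med1cKO only (172 and 273), and Krt15, at 28921 and 21147, and Cd34 were lower, within 1.5-fold. The 6 basal and 4 detected suprabasal keratinocyte markers were within 1.5-fold. Of the suprabasal markers, Krt10 (34754 and 34901) and Lor (12879 and 13755) were bright on both arrays. Krt1 (3756 and 3156) and Ivl (675 and 775) were dimmer. Whether the RNA came from sorted cells or whole skin was not tested. The part of these cell types in the chaperone values was not tested.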

How the data were processed

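Intensity and detection p-value per probe were deposited for 2 Illumina arrays (CON and Med1cKO, 1 pool of 3 mice each). Per the file headers the intensity values are not normalized, and the values show no background subtraction. Each detection p-value, per the file headers, belongs to the probe's own array. The submitters' processing notes name GenomeStudio 2011.1. Intensity values normalized by the authors, by a method not stated in the labels, served as an alternative. They are linear and uncentred, share a 75th percentile of 586.15, have medians of 198.42 (CON) and 198.74 (Med1cKO), and keep each array's rank order.

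Intensities were processed with neqc of limma 3.58.1 (R 4.3.3): background from the detection p-values (mean 168 and SD 21.85 for CON, 163 and 17.03 for Med1cKO), offset 16, quantile normalization, log2. Later steps used Python 3.11.15. The procedure was tested on simulated data. The platform annotation gave 1 gene symbol to 23978 of 25697 probes and none to 1719. The brightest probe stood for a gene. A gene seen on 1 array has a bound: the dim side was set no lower than the dimmest detected probe of that array after normalization (log2 6.41 for CON, 6.20 for Med1cKO). The robust SD is the scaled median absolute deviation of log2 ratios in 10 level bins. No test was possible with 1 array per genotype.

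The members and lists were chosen with earlier results of these data known. Any detected member could be named. Full values were given to members at least 2-fold different, to the brightest and the 3 largest ratios of each family, and to up to 6 genes per other list. Alternatives covered background correction, normalization, offset, detection filter and probe choice.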

Additional observations from a re-analysis of the deposited data

How the results depend on the processing

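The number of chaperone genes at least 2-fold higher was 3 and ranged from 2 to 4 over 9 alternatives. It was 2 without background correction and with the authors' values, where Dnajb4 dropped below 2-fold, and 4 with cyclic loess and with median scaling, where Hspa4 joined. The share of all detected genes fell to 1.95% higher and 0.553% lower without background correction, and to 2.05% and 0.578% with the authors' values, against 3.64% and 1.82% of members in both. The number at least 2-fold lower was 1, and became 2 with detection p below 0.05, where the bound of Dnaja1 reached a log2 ratio of -1.29, and 3 with no detection filter, which takes dim values as measured. With 1.5-fold in place of 2-fold the counts were 8 and 3. The median log2 ratio ranged from 0.02 to 0.13 over all members, from 0.37 to 0.502 over the heat shock factor 1 inducible group, and from -0.03 to 0.07 over the co-chaperones. No gene at least 2-fold different changed sign, and no value of a detected member moved by over 1.5-fold in 436 comparisons. Signs differed in some alternative for 6 genes. Among these, Dnajc19 and the bound of Dnajb3 were at 0.00 and so had no sign to begin with. The bound of Dnajb3 reached 0.41 with detection p below 0.05. The others were near 0, among them Hspa8 at -0.07 with the mean of its probes. No paired analysis was possible because each genotype had 1 array. Signal over background limits the dim genes, whose folds rest on the background correction.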
